A study of Arabidopsis thaliana with 6 samples.

Results

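The ER body and PYK10 complex genes are 7 transcripts of the *Arabidopsis thaliana* root, measured here in the jasmonate (JA) signalling mutant *ninja-1* and in WT. They encode an enzyme (*PYK10*), a transcriptional regulator (*NAI1*), a protein needed to form ER bodies (*NAI2*), a membrane protein of the ER body (*MEB1*) and jacalin-related lectins (*JAL22*, *JAL33* and *JAL34*). The members were chosen by name and function, as 7 of the 22746 probe sets of the Affymetrix ATH1 array that were tested. They were chosen with earlier results of these arrays known. *JAL22*, *JAL33* and *MEB1* are also listed in the study's own table of changed genes, which was drawn from the same samples, so their direction is not independent evidence.

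ER bodies are spindle-shaped compartments that branch off the endoplasmic reticulum in seedlings and roots of *Arabidopsis* and related plants. They store large amounts of β-glucosidases, enzymes that cleave sugar from defence compounds such as glucosinolates and coumarin glucosides. When a cell is broken, the β-glucosidase PYK10 meets jacalin-related lectins and forms large aggregates with them, the PYK10 complex. ER bodies are constitutive in roots, and in rosette leaves they can be induced by wounding or JA.

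Both genotypes are Col-0 and carry the JAZ10pro-GUSPlus (JGP) reporter, in which the promoter of a JA-responsive gene drives a GUS enzyme. The *ninja-1* group is a mutant in *NINJA*, which encodes an adaptor between JAZ repressors and corepressors of JA responses. It is represented by 1 allele, and it was compared with WT, in which *NINJA* is intact. Seedlings were grown without treatment, and RNA came from whole 5-do roots, 120 per sample, with 3 biological replicates per genotype and 1 array for each.

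All values are on the log2 scale as deposited by the authors, who used GCRMA, an algorithm that corrects the background by probe sequence, equalizes the arrays and summarizes the probes of a set. Array medians lay between 5.95 and 6.03, the lowest value of every array was 2.11, referred to as the floor, and 26.5% to 27.0% of probe sets were within 0.05 of it. All 7 members exceeded a value of 4 on every array. The transcript of *NINJA* was not analysed here, because the annotation used names no probe set for it, and genotypes were taken from the labels. The study itself reports *NINJA* among the genes lower in *ninja-1* roots. The root hair expansins *EXPA7* and *EXPA18*, markers of root tissue, were well above the floor in both genotypes. The stomatal lineage genes *SPCH* and *MUTE* were at the floor on all 6 arrays, and *PORB*, of green tissue, was just above it. The photosynthesis genes *RCA*, *PSBW*, *PSBY* and *PSAN* were well above the floor in both genotypes. Their group means ran from 6.22 (*PSAN*, WT) to 10.26 (*RCA*, *ninja-1*). Each probe set has its own response to its transcript, so levels are compared between genotypes and not between genes.

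Every member was higher on each *ninja-1* array than on any WT array. In a linear model (limma, two-sided, Benjamini-Hochberg adjustment over all 22746 probe sets), 5 of the 7 rose past an adjusted p of 0.05 and 0 fell. The lectin genes *JAL22* and *JAL33* and the membrane protein gene *MEB1*, 3 in all, were called higher, which also requires at least a 2-fold change. These thresholds follow the study's methods. *PYK10* and *NAI2* passed the adjusted p with smaller changes, and *NAI1* and *JAL34* did not pass. Across all probe sets, 0.492% were called higher, 0.805% passed the adjusted p upwards and 0.374% downwards, and 7.75% had every *ninja-1* array above every WT array. The members are well measured genes, and among the 8905 probe sets with a mean of at least 7, a limit chosen after the data had been seen, 1.4% passed the adjusted p upwards and 12.1% did not overlap in that direction. The median log2 change was 0.70 over the 7 members and 0 over all probe sets tested. In bulk root RNA, more cells that hold a transcript and more transcript per cell cannot be told apart.

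**Figure D1:**
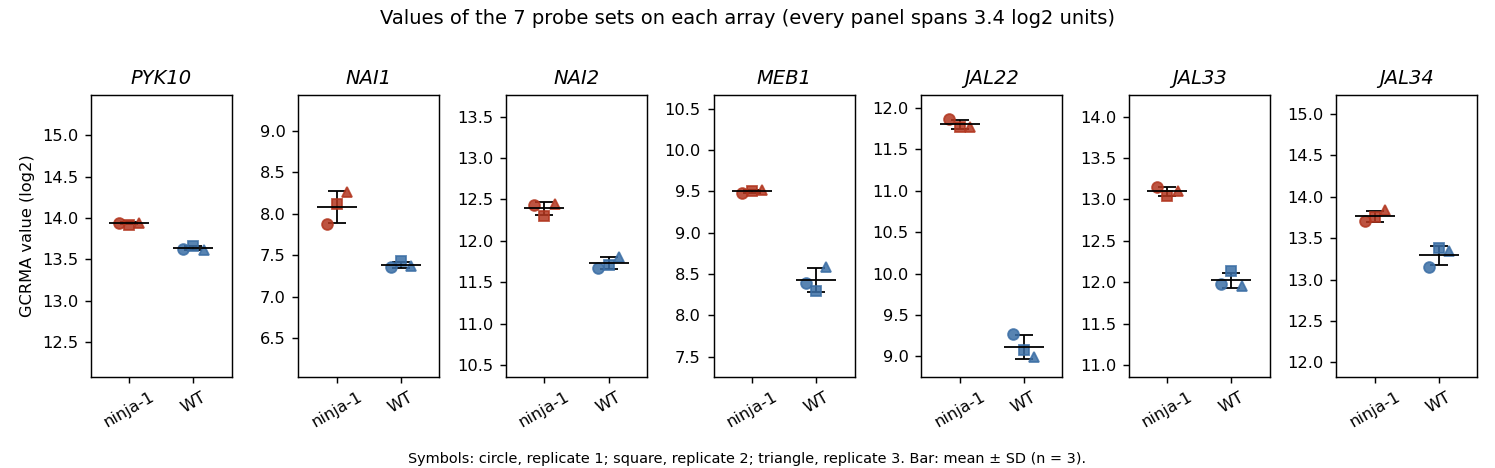
GCRMA values (log2) of the 7 probe sets on the 6 arrays, *ninja-1* left of WT, 1 panel per gene with a vertical span of equal size. Points are arrays and bars are means ± SD (n = 3); in every panel the *ninja-1* points lie above the WT points, by the widest margin for *JAL22* and the narrowest for *PYK10*.

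*PYK10* (259009_at, also known as *BGLU23*) encodes the main β-glucosidase of root ER bodies. Its values were 13.94, 13.92 and 13.95 in *ninja-1* roots, against 13.63, 13.66 and 13.61 in WT roots. The 2 genotypes did not overlap, and the arrays of each genotype lay closer together than for any other member. The log2 change of 0.30 (standard error 0.016, 95% confidence interval 0.26 to 0.35), or 1.23-fold, passed the test (adjusted p = 0.00838) and is the smallest change of the 7. Its values were near the top of the array scale, on which no value exceeded 15.14.

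*PYK10* has close relatives among the β-glucosidases. *BGLU21* and *BGLU22*, root β-glucosidases, share a single probe set (260130_s_at), so that their transcripts cannot be told apart here. It read 13.43, 13.32 and 13.49 in *ninja-1* roots and 12.66, 12.92 and 12.85 in WT roots. Although these groups did not overlap, the difference of 0.60 (standard error 0.088, 1.52-fold) did not pass (adjusted p = 0.0826). *BGLU19* and *BGLU20*, also known as *ATA27*, were at the floor on all 6 arrays.

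*NAI1* (266456_at) encodes a basic helix-loop-helix (bHLH) transcription factor without which ER bodies of seedlings are not formed and *PYK10* is hardly transcribed. Its values were 7.87, 8.12 and 8.26 in *ninja-1* and 7.36, 7.43 and 7.36 in WT. The *ninja-1* arrays lay all above WT but spread more widely, with an SD of 0.197 against 0.0372 in WT, and replicate 1 was the lowest of them. The log2 change was 0.70 (standard error 0.11, 95% confidence interval 0.40 to 0.99), or 1.62-fold, with an unadjusted p of 0.00229 and an adjusted p of 0.0956 in limma. The point estimate for *NAI1* thus exceeded that for *PYK10*, while only *PYK10*, with its narrow spread, passed the test in this fit. That contrast depended on the setting. With dim probe sets left out (those not above 4 on at least 3 arrays), both passed in limma, *NAI1* with the lower adjusted p (0.00939 against 0.0261). Both also passed with median centring (0.0316 for *NAI1* and 0.0117 for *PYK10*).

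The bHLH factors closest to *NAI1* in sequence were all 3 measured. *bHLH25* (253070_at) read 4.87, 4.99 and 5.46 in *ninja-1* and 3.17, 2.67 and 3.17 in WT, a log2 change of 2.10 (adjusted p = 0.0477, standard error 0.23) and 1 of the 3 called. *bHLH19* (266455_at), the gene next to *NAI1*, read 2.44, 2.42 and 2.56 in *ninja-1* and 2.11 on each WT array. That change of 0.36 (adjusted p = 0.0493) left it close to the floor. *bHLH18* was at the floor on all 6 arrays.

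*NAI2* (257798_at) encodes a protein of the ER body lumen that is required for the compartment to form. Its values were 12.43, 12.30 and 12.44 in *ninja-1* and 11.67, 11.71 and 11.81 in WT. The groups did not overlap, and *ninja-1* replicate 2 was the lowest of its group. *NAI2* rose, with a log2 change of 0.66 (standard error 0.060, 95% confidence interval 0.50 to 0.82), which is 1.58-fold, with an adjusted p of 0.0285. The difference between the log2 changes of *NAI1* and *NAI2* was 0.038 (standard error 0.14), smaller than its error.

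*MEB1* (253842_at) encodes an integral membrane protein of the ER body with similarity to iron and manganese transporters, which binds NAI2. The array annotation used here lists no gene for this probe set, and the name comes from the choice of members alone. Its values were 9.48, 9.50 and 9.52 in *ninja-1*, against 8.40, 8.30 and 8.59 in WT. The *ninja-1* arrays were nearly identical (SD 0.021), the WT arrays less so (SD 0.14), with WT replicate 3 the highest of its group. *MEB1* rose, with a log2 change of 1.07 (standard error 0.081, 95% confidence interval 0.86 to 1.29), or 2.10-fold (adjusted p = 0.0188). The interval includes changes under 2-fold.

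The lectins held both the largest change of the 7 members and 1 of the changes that did not pass. *JAL22* (266988_at), a jacalin-related lectin found in the PYK10 complex, read 11.86, 11.77 and 11.78 in *ninja-1* and 9.27, 9.07 and 8.99 in WT. The lowest *ninja-1* array was thus far above the highest WT array. Its log2 change was 2.69 (standard error 0.083, 95% confidence interval 2.47 to 2.91), or 6.46-fold, with an adjusted p of 0.00361. Among all probe sets tested *JAL22* was 13 in the order of p and 24 in the order of upward change.

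*JAL33* (259384_at), a further lectin of the complex, read 13.15, 13.05 and 13.10 in *ninja-1* and 11.98, 12.13 and 11.95 in WT. Its rise on the log2 scale was 1.08 (standard error 0.059, 95% confidence interval 0.92 to 1.24), or 2.11-fold (adjusted p = 0.00849). The last lectin probe set, 259327_at, read 13.70, 13.76 and 13.84 in *ninja-1* and 13.15, 13.38 and 13.34 in WT. The array annotation gives it to *JAL34*, whereas the choice of members had called it *JAL35*; in the RefSeq gene table the 2 genes are adjacent with overlapping gene models, and *JAL35* under its own name was not analysed here. *JAL34* did not overlap between genotypes, and its log2 change of 0.47 (standard error 0.075, 95% confidence interval 0.27 to 0.68), or 1.39-fold, did not pass (adjusted p = 0.0966).

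Genes near the members on the chromosome were looked up for comparison. *JAL33* and *JAL34* are neighbouring genes, yet the change of *JAL33* exceeded that of *JAL34* by 0.60 (standard error 0.087), with no overlap between genotypes in the difference taken array by array. *JAL23*, a lectin gene of the PYK10 complex near *JAL22*, was at 2.11 in both genotypes. Among the other genes within 5 protein-coding genes of *JAL22*, 5 had a probe set with *JAL23* included, and their log2 changes ran between −0.32 and 0.00091, with 0 past the adjusted p. No gene past the adjusted p was found among the 4 measured neighbours of *PYK10* (−0.29 to 0.029), the 5 of *NAI2* (−0.16 to 0.075) or the 5 of *MEB1* (−0.11 to 0.26). The exceptions among all neighbours were *bHLH19* beside *NAI1* and *JAL33* beside *JAL34*.

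**Figure D2:**
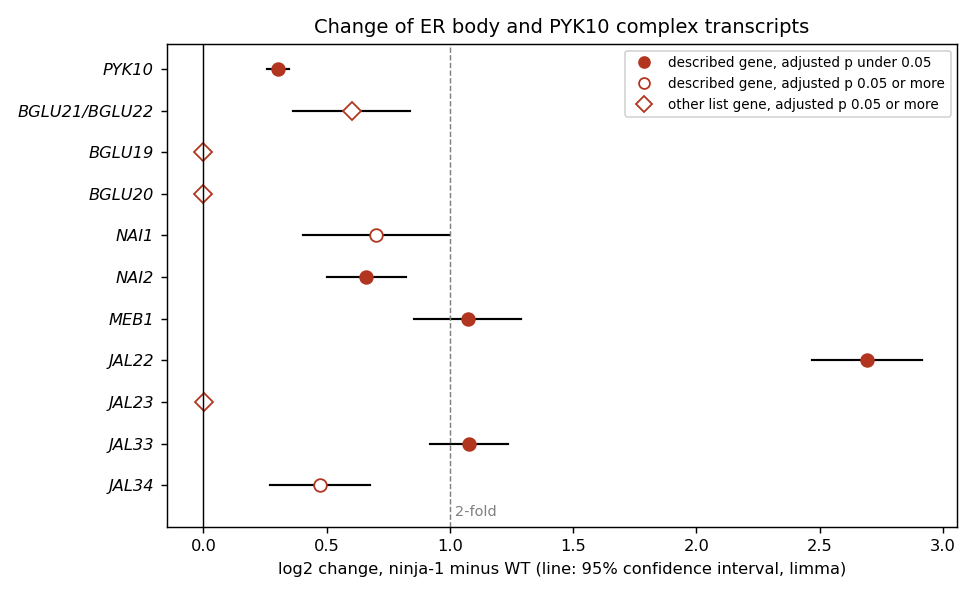
Log2 change, *ninja-1* minus WT, with circles for the 7 genes and lines for 95% confidence intervals from limma. Diamonds are the shared *BGLU21* and *BGLU22* probe set and 3 further genes listed for ER bodies and the PYK10 complex. Filled symbols passed an adjusted p of 0.05; *JAL22* lies at 2.69, the other 6 genes between 0.30 and 1.08, and *BGLU19*, *BGLU20* and *JAL23*, which were at the floor in both genotypes, at 0.

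The log2 changes of the members were compared in 21 pairs by an exact permutation test on the array-by-array difference of 2 genes, for which 3 against 3 arrays allow no p below 0.1 (two-sided). No pair could therefore pass, and the pairs are given as a description. In 18 of the 21 pairs the 2 genotypes did not overlap (exact permutation p = 0.1, adjusted p = 0.117 over the pairs). The pairs share genes and are not separate observations, and the share among pairs of other genes was not computed. The change of *JAL22* was above that of every other member, by 1.61 (standard error 0.10) over *JAL33*, the nearest below it, and by 2.39 (standard error 0.086) over *PYK10*. The 3 pairs that overlapped were *JAL33* and *MEB1*, whose changes differed by 0.0054 (exact p = 1), *NAI1* and *NAI2* (exact p = 0.8), and *NAI1* and *JAL34*, with a difference of 0.22 (standard error 0.097, exact p = 0.2). From high to low the order of the estimates was *JAL22*, then *JAL33* and *MEB1* close together, then *NAI1* and *NAI2* close together, then *JAL34* and *PYK10*. *PYK10* and *JAL34* also had the highest WT means of the members, 13.63 and 13.29. Whether values so high on the array scale limited their changes was not tested. In the single-gene comparison between genotypes the exact permutation p was likewise 0.1 for each member, the smallest value possible.

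**Figure D3:**
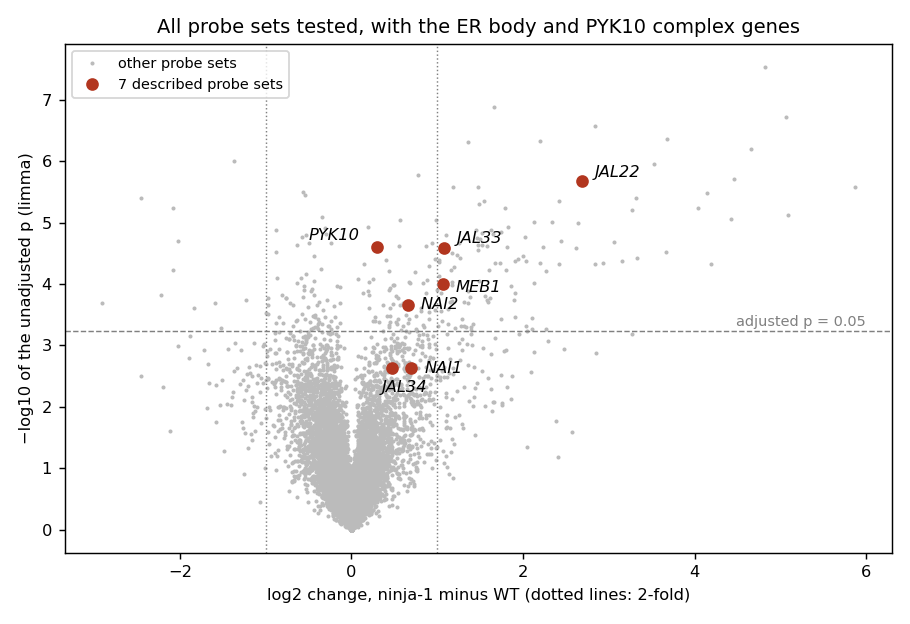
Log2 change, *ninja-1* minus WT, against −log10 of the unadjusted p from limma for all 22746 probe sets (grey) with the 7 genes in red; the dashed line is an adjusted p of 0.05 and the dotted lines are 2-fold changes. *JAL22*, *JAL33* and *MEB1* lie beyond both limits, *PYK10* and *NAI2* above the dashed line only, and *NAI1* and *JAL34* below it.

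The deviations of the members were spread over the arrays. Set against the mean of its own genotype, *ninja-1* replicate 3 was above it for 5 of the 7 members, replicate 1 for 4 and replicate 2 for 1, while WT replicates 1, 2 and 3 were above it for 1, 4 and 3. The mean deviation of an array over the members lay between −0.024 and 0.043 on the log2 scale, below the smallest log2 change of a member. The residual SD of the members ran between 0.021 for *PYK10* and 0.14 for *NAI1*, with a median of 0.097, against 0.085 over all probe sets. The latter median includes the probe sets at the floor, with residual SDs down to 0, so it is not one of genes at like levels.

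Which members passed the adjusted p differed between fits on 5 arrays. With each array left out in turn, the change of every member stayed positive and its unadjusted p stayed under 0.05, as it did for 7 of 7 members with all arrays (5.73% of all probe sets had such a p upwards). For *JAL22* the adjusted p stayed under 0.05 in 6 of 6 fits (0.0151 to 0.0340). *PYK10* lost it without *ninja-1* replicate 1 (adjusted p = 0.0618), *ninja-1* replicate 2 (0.0544) or WT replicate 1 (0.0612), and *JAL33* without the same arrays (0.0569, 0.0581 and 0.0610). *MEB1* passed in 1 fit, without WT replicate 3 (0.0169), and had 0.0636 to 0.110 in the others. *NAI2* passed in none (0.0684 to 0.137). In these fits of 5 arrays, 66 to 215 of all probe sets passed the adjusted p, against 268 with 6 arrays.

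**Figure D4:**
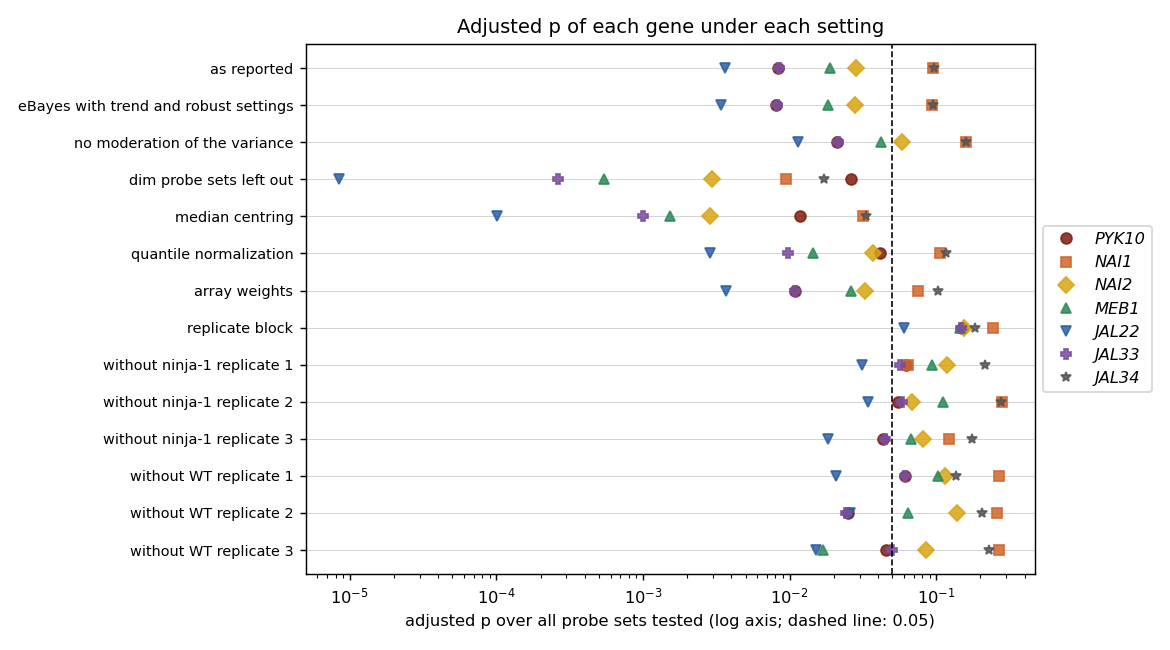
Adjusted p (log axis) of each of the 7 genes under every setting tried, 1 row per setting, with the dashed line at 0.05. *JAL22* lies left of the line in every row except the replicate block, whereas *NAI1* and *JAL34* lie left of it only with dim probe sets left out or with median centring.

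The wider gene lists were described by counts. Of 21 genes listed for ER bodies and the PYK10 complex, 10 had a probe set of their own that the annotation or the choice of members names, and beyond the 7 members these were *BGLU19*, *BGLU20* and *JAL23*, of which 0 passed the adjusted p. Among 47 β-glucosidase genes of the family that includes *PYK10*, 22 were measured and 2 passed the adjusted p upwards, *PYK10* and *BGLU16*. *BGLU16* read 8.81, 8.70 and 8.88 in *ninja-1* and 8.31, 8.26 and 8.24 in WT, a log2 change of 0.53 (adjusted p = 0.0434). *BGLU46* and *BGLU45*, enzymes of monolignol glucosides, had changes of opposite sign, 0.76 (adjusted p = 0.147) and −0.72 (adjusted p = 0.419), neither past the test. *BGLU25* had a change of 0.67 (adjusted p = 0.147). At an unadjusted p under 0.05 in limma, 5 of the 22 were higher and 1 was lower. The lower one was *BGLU42*, with a change of −0.46 (adjusted p = 0.325).

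Of 12 chaperones and foldases of the ER in general, 2 were measured. *CRT1B* (264260_at), a calreticulin that binds calcium and unfinished glycoproteins, read 12.35, 12.36 and 12.37 in *ninja-1* and 12.16, 12.16 and 12.18 in WT. Its change of 0.19 (standard error 0.0088, 1.14-fold) was smaller than that of any member and passed the test (adjusted p = 0.00701). *CNX2*, a calnexin, had a change of 0.23 (adjusted p = 0.481). Classical myrosinases, nitrile specifier proteins and enzymes of indole glucosinolate synthesis were not analysed here because their probe sets are not named by the annotation used.

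None of the measured tissue markers passed the adjusted p, though their summed levels did not overlap between genotypes. Taken singly, *EXPA7*, *EXPA18*, *RCA* and *PORB* overlapped, whereas *PSAN*, *PSBY* and *PSBW* did not. Of 11 root markers planned at first, only *EXPA7* was measured, and *EXPA18* was added. Of 7 shoot markers planned at first, 0 were measured. The 2 root hair genes had changes of 0.15 for *EXPA7* (adjusted p = 0.486) and 0.24 for *EXPA18* (adjusted p = 0.487), and their summed linear level was 1359 to 1595 in *ninja-1* and 1227 to 1324 in WT. Of 7 genes of green or stomatal tissue, named after the annotation had been seen, 5 were above the floor (*PORB* only just), 0 passed the adjusted p, and their summed linear level was 1760 to 2167 in *ninja-1* and 1593 to 1732 in WT. The photosystem genes *PSAN*, *PSBY* and *PSBW* had changes of 0.59, 0.32 and 0.31 (adjusted p = 0.393, 0.119 and 0.337), and *RCA*, for Rubisco activase, 0.11. The part of tissue composition in the changes of the members was not tested.

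Several transcripts followed the members closely over the 6 arrays. The profile of the members was taken as the mean of their standardized values, and 9927 named genes, each by its brightest probe set, were ranked by Pearson's r to it, leaving out 3351 whose value was the same on all 6 arrays. No test was made, since any gene that differs clearly between the genotypes has a high r over so few arrays. The 5 most alike were AT5G47950 (r = 0.9994), AT5G47980 (0.9985), AT3G46700 (0.9984), AT1G22550 (0.9980) and *MSRB9* (0.9974), and 123 had an r above 0.95. AT5G47980 averaged 9.98 ± 0.15 in *ninja-1* and 8.08 ± 0.15 in WT (SD, n = 3 each), 3.74-fold. *MSRB9*, for a methionine sulfoxide reductase, averaged 12.42 ± 0.040 in *ninja-1* and 11.65 ± 0.0099 in WT (SD, n = 3 each), a change of 0.77, the smallest of these 5.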

How the data were processed

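Root RNA of 3 *ninja-1* and 3 WT replicates was hybridized to ATH1 arrays. The deposited log2 values, which the authors made with GCRMA in R (no version is named), were used without further normalization. Control probe sets (64) were left out, and 22746 were tested in limma 3.58.1 under R 4.3.3 (lmFit and eBayes, default prior, genotype as the only term, two-sided, Benjamini-Hochberg adjustment). A call needs an adjusted p under 0.05 and a 2-fold change. The fit was tested on simulated data. The number of arrays limits the precision.

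Names came from the array annotation (13513 probe sets with 1 gene, 503 with several, 8730 with none) and RefSeq's table of TAIR10.1 genes, which also gave gene order; no coordinates are given, since the values name no genome build. The brightest probe set stood for a gene. Named were the 7 members, the measured genes of ER bodies and the PYK10 complex, in other lists the 4 smallest p and every gene past the adjusted p, and the 5 most similar profiles; genes named beyond this were chosen after their values were seen. The members and lists were chosen with earlier results of these data known. Alternatives were trend and robust settings, no moderation, a filter on dim probe sets (above 4 on at least 3 arrays), median centring, quantile normalization, array weights, a replicate block, the adjusted p alone and leaving out each array.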

Additional observations from a re-analysis of the deposited data

How the results depend on the processing

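The log2 change of each of the 7 genes was positive under every alternative. Of 91 such values, 64 stayed on the same side of the adjusted p, 23 lost it, 4 gained it and 0 turned round. The count of the 7 genes called higher was 3 with trend and robust settings, no moderation or dim probe sets left out. It was also 3 with median centring, quantile normalization or array weights. For the ER body and PYK10 complex list the count is not a separate result, because the genes called were the same. By the adjusted p alone the count of the 7 genes was 5, since the 2-fold limit is dropped. With 1 array left out, both counts lay between 1 and 3. *NAI2* did not pass without moderation (adjusted p = 0.0586). With dim probe sets left out (14230 tested) all 7 genes passed, among them *NAI1* (0.00939) and *JAL34* (0.0172). With median centring all 7 also passed (*NAI1* 0.0316, *JAL34* 0.0332), while the median of all probe sets moved by 0.034. The standard error of *PYK10* was larger in these settings than the 0.016 of the reported fit. With dim probe sets left out it was 0.059 (adjusted p = 0.0261), and with median centring 0.037 (adjusted p = 0.0117). The total of probe sets past the adjusted p rose in both settings, from 268 in the reported fit. It was 1000 with dim ones left out and 813 of 22746 with median centring. The cause was not tested.

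With the replicate number as a block, 0 members and 0 list genes were called, and 0 of all probe sets passed the adjusted p, whereas all 7 members had an unadjusted p under 0.05 (highest 0.0126) and the lowest adjusted p of a member was 0.0601, for *JAL22*. The labels do not say that a number marks a shared batch. Deviations of same-numbered arrays correlated at 0.095, 0.050 and 0.15 for numbers 1, 2 and 3, and those of differently numbered arrays at −0.21 to 0.15. With 3 arrays per genotype, each set against its own group mean, these values cannot decide whether the numbers pair the samples. The reported fit has no block because the labels describe no pairing.

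With 3 arrays per genotype, an exact test cannot go below p = 0.1, and values at the floor of 2.11 show no decrease. Of the 21 listed genes, 11 were not measured by a probe set named for them alone, *BGLU21* and *BGLU22* because they share one.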
